A study of Mus musculus with 16 samples.

Results

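The mouse genes described here are the zinc finger genes with symbols from Zfp500 to Zfp999. The rule took every such symbol in the deposited table of expected counts except Zfp781, Zfp873 and Zfp938, without reference to any measured value. It gave 175 members among 17230 genes. Total RNA of the plantaris, a plantar flexor of the ankle, was sequenced from mice 9 to 12 weeks old in 4 groups. TRIM28 mKO mice (KO), labelled as carrying a Trim28 knockout, had either myotenectomy (MTE), a mechanical overload, or a sham operation (Sham), and so had Wild Type mice (WT). Libraries numbered 4 for KO MTE, 3 for KO Sham, 4 for WT MTE and 4 for WT Sham. The sources used here give no Cre driver, strain or time after surgery. They do not say whether each sample was a separate animal, and p-values therefore cover the spread among the samples only, which may be technical.

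Zfp is the mouse naming series for C2H2 zinc finger proteins, in which repeated fingers, each folded around a zinc ion, read DNA. A large share of them also carry a KRAB domain, through which they recruit TRIM28. TRIM28 in turn brings in the methyltransferase SETDB1 and HP1 proteins, and the resulting H3K9 trimethylation silences transposons and, at many loci, the clustered KRAB zinc finger genes themselves. The genes have multiplied by tandem duplication, so that many are near-identical neighbours.

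By their symbols the members belong to the Zfp series, but not all had repeated fingers by sequence. The letter pattern for fingers was found 0 to 33 times per protein, with 0 in Zfp503 and 1 in Zfp593. Of the 175, 173 were protein-coding in GENCODE M21 (GRCm38) and 2, Zfp660 and Zfp939, were pseudogenes. A KRAB-type letter pattern was found in the N-terminal part of 108 proteins and not in 65, although divergent KRAB domains can be missed by it. The 108 proteins with the pattern had a median of 12 fingers, against a median of 7 in the 65 without it. Members lay on 18 chromosomes, with 48 on chromosome 7, 25 on chromosome 17 and 16 on chromosome 8. Runs of at least 3 members less than 500 kb apart numbered 18 and held 93 members.

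Library totals were about 21100000 to 69200000 counts. Levels are in CPM, the counts per 1000000 of a library total adjusted by its TMM scaling factor. Trim28 itself had 30.3, 25.2, 17.96 and 24.8 CPM in KO MTE and 60.9, 51.9, 47.3 and 35.3 CPM in WT MTE. It had 12.7, 11.6 and 5.39 CPM in KO Sham and 49.01, 27.8, 36.1 and 30.1 CPM in WT Sham. KO and WT libraries did not overlap in either surgery, and Trim28 was lower in KO pooled over surgeries (log2 fold change -1.42, SE 0.20, adjusted p = 0.000975) and after Sham (log2 fold change -1.84, SE 0.30, adjusted p = 0.0101). After MTE alone its difference was not called (-0.99, adjusted p = 0.0822). A pair of libraries stood apart from their groups, and the main counts are also given without them. WT Sham library 1 had a summed macrophage marker level of 3144 CPM, against 245 to 335 CPM in the other WT Sham libraries. KO Sham column 3 had the lowest depth, about 21100000 counts, with 20.5% of them mitochondrial, while KO Sham columns 1 and 2 had 11.3% and 12.2%. Cell markers moved with overload. Skeletal muscle markers summed to 88450 to 156880 CPM in KO MTE and 168730 to 229690 CPM in KO Sham, and to 97405 to 186270 CPM in WT MTE and 187360 to 301860 CPM in WT Sham. Of these 6 markers, 3 were called lower after MTE in each genotype. Macrophage markers summed to 805 to 943 CPM in KO MTE and 117 to 281 CPM in KO Sham, and to 1112 to 1524 CPM in WT MTE. Summed fibroblast markers were 6882 to 10576 CPM in KO MTE and 1139 to 2378 CPM in KO Sham, and 5531 to 14387 CPM in WT MTE and 1821 to 2639 CPM in WT Sham. In whole muscle, fewer cells of a type and less RNA per cell cannot be told apart.

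All 175 members passed the filter on low counts, and none was at 0 in any library. Their levels were close to those of other genes: the median was 1.77 CPM per kb of exon, against 1.88 over all 17212 genes tested and 2.57 over the protein-coding ones. The highest level was that of Zfp869, at 24.3 CPM per kb, followed by Zfp617 at 13.0, Zfp971 at 12.5, Zfp644 at 9.82 and Zfp970 at 9.05 CPM per kb. The lowest were Zfp600 at 0.109, Zfp536 at 0.0784 and Zfp941 at 0.0427 CPM per kb. Mean levels were over 10 CPM for 70 members and under 1 CPM for 15. Expected counts of 40 members were not whole numbers in some library, the mark of reads shared out between similar or overlapping genes, and their values are less certain.

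RefSeq start-site sequences (GRCm38.p6, 250 bases before to 50 after the start) were matched to 148 members. The CCAAT box, the letters CCAAT on either strand, is a common promoter element bound by the factor NF-Y. It was found in 63.9% of the promoters of KRAB-pattern members, against 32.7% of those without the pattern and 37.9% of 27025 genes with a RefSeq start site. In this paragraph all genes means those 27025, which were not filtered for expression, whereas every member had passed the filter on low counts. The members without the pattern instead more often held GGGCGG, the core of the Sp1 site, on either strand, in 61.2% against 41.2% of KRAB-pattern members and 35.9% of all genes. CG dinucleotides had a median of 10 per promoter in KRAB-pattern members, 22 in members without the pattern and 7 over all genes. A match is a description of the letters only. The 100 bases before the start are printed for 6 KRAB-pattern members, chosen after their values were seen. Zfp808 was higher in KO than in WT and was called lower under overload in KO alone. The other 5 fell under overload in both genotypes. Coordinates are GRCm38. Each is on the gene's strand, 5′ to 3′, and capitals mark CCAAT boxes.
Zfp808, chr13:62129790-62129889, plus strand: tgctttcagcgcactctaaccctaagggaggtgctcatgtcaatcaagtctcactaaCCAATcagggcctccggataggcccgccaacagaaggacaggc
Zfp973, chr2:176670422-176670521, plus strand: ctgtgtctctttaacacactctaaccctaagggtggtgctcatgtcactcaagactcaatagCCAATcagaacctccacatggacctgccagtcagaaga
Zfp773, chr7:7136756-7136855, minus strand: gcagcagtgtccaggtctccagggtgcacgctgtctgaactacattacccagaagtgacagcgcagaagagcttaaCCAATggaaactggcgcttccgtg
Zfp799, chr17:32830262-32830361, minus strand: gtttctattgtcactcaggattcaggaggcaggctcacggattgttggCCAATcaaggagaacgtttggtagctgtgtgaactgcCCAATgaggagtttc
Zfp661, chr2:127587095-127587194, minus strand: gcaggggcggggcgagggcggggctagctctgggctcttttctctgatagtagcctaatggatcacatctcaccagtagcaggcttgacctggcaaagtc
Zfp949, chr9:88547920-88548019, plus strand: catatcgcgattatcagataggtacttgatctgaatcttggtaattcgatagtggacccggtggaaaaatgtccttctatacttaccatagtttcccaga
The first 4 held a CCAAT box, and Zfp799 held 2. Zfp661 held GGGCGG and no CCAAT, and Zfp949 held none of the searched motifs in these bases.

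The first comparison asked what loss of TRIM28 changed. Few members differed between genotypes, and every one that was called was higher in KO. Pooled over surgeries, 6 members were called higher and 0 lower at an adjusted p under 0.05 by edgeR's quasi-likelihood test. That is 3.43% of members, where 3.37% of all genes were called, 2.36% higher and 1.01% lower, so the share called was near the background. The 6 were Zfp934, Zfp808, Zfp788, Zfp599, Zfp960 and Zfp706. The first 5 hold the KRAB pattern. With both set-apart libraries left out, all but Zfp599 were called, 5 members, where 6.37% of all genes were.

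Zfp934 was the clearest. Its gene lies at chr13:62479827-62571199 on the minus strand and encodes 11 fingers. It had 5.199, 5.696, 8.52 and 6.34 CPM in KO MTE libraries, against 1.804, 3.14, 2.44 and 3.197 CPM in WT MTE libraries. In the sham groups it had 10.2, 9.79 and 11.8 CPM in KO, against 1.99, 3.61, 2.43 and 3.35 CPM in WT. Every KO library was above every WT library in both surgeries. The genotype difference passed the test after MTE (log2 fold change 1.28, SE 0.24, adjusted p = 0.0146), after Sham (log2 fold change 1.90, SE 0.26, adjusted p = 0.00286) and pooled (log2 fold change 1.59, SE 0.18, adjusted p = 0.000172). An exact two-sided permutation test gave p = 0.0286 within each surgery, the smallest these group sizes allow. With WT Sham library 1 and KO Sham column 3 left out, the pooled log2 fold change was 1.48 (adjusted p = 0.000251). The call after MTE was lost without WT MTE library 3 (adjusted p = 0.0661) and the one after Sham with the 2 sham groups fitted alone (adjusted p = 0.1005). Its expected counts were not whole in any of the 15 libraries, and its exons overlap those of Zfp935 on the same strand.

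Zfp808, with 22 fingers, is a neighbour of Zfp934 in the same run on chromosome 13. It had 2.63, 3.66, 4.201 and 3.12 CPM in KO MTE and 0.9496, 3.12, 2.58 and 1.98 CPM in WT MTE. It had 5.44, 5.82 and 9.62 CPM in KO Sham and 2.05, 3.09, 1.76 and 2.67 CPM in WT Sham. The sham groups did not overlap, while the MTE groups did. The difference was called pooled (log2 fold change 1.09, SE 0.24, adjusted p = 0.0188), with 0.91 and adjusted p = 0.0412 without the set-apart libraries, and in neither surgery alone (adjusted p = 0.42 after MTE and 0.0729 after Sham). The third gene of the run, Zfp935, had a pooled log2 fold change of 0.11 (SE 0.15, adjusted p = 0.757). Two-sided exact permutation gave p = 0.0857 for Zfp808 after MTE and 0.0286 after Sham.

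Zfp788, a gene of 23 fingers on chromosome 7, had 15.99, 21.1, 23.7 and 17.3 CPM in KO MTE and 11.5, 11.2, 12.5 and 13.3 CPM in WT MTE. In the sham groups it had 27.9, 25.1 and 32.8 CPM in KO and 12.6, 21.5, 18.2 and 18.4 CPM in WT. No KO library overlapped the WT libraries of the same surgery. Its counts were whole in every library. It was called pooled (log2 fold change 0.69, SE 0.12, adjusted p = 0.00596), and without the set-apart libraries at 0.57 (adjusted p = 0.00554).

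Zfp706, the only one of the 6 without the KRAB pattern, encodes a small protein with a single finger that in mouse embryonic stem cells represses Klf4. Its difference was the smallest and its spread the tightest. It had 41.05, 39.7, 41.5 and 40.8 CPM in KO MTE and 33.6, 33.6, 31.4 and 36.8 CPM in WT MTE, with 50.6, 45.2 and 49.3 CPM in KO Sham and 33.8, 37.5, 35.1 and 35.1 CPM in WT Sham. The groups did not overlap in either surgery. It was called pooled (log2 fold change 0.36, SE 0.06, adjusted p = 0.00596). The call within Sham (adjusted p = 0.0495) was at the threshold and was kept under 2 of 22 alternatives.

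Zfp599 and Zfp960 were called pooled with less support. Zfp599 had 0.376, 0.949, 1.197 and 0.629 CPM in KO MTE and 0.119, 0.321, 0.308 and 0.343 CPM in WT MTE. It had 0.288, 0.329 and 0.4901 CPM in KO Sham and 0.133, 0.0322, 0.126 and 0.235 CPM in WT Sham. These levels are low, and its pooled call (log2 fold change 1.47, SE 0.36, adjusted p = 0.0402) was kept under 5 of 20 alternatives and lost without both set-apart libraries (log2 fold change 1.37, adjusted p = 0.0673). Zfp960, on chromosome 17, had 11.3, 13.9, 16.8 and 12.8 CPM in KO MTE and 6.12, 7.98, 9.27 and 10.5 CPM in WT MTE. It had 24.5, 21.03 and 46.1 CPM in KO Sham and 6.91, 20.3, 14.1 and 17.2 CPM in WT Sham. Column 3 was the highest KO library and library 1 the lowest WT Sham library. Its pooled call (log2 fold change 0.88, SE 0.22, adjusted p = 0.0457) was kept under 7 of 21 alternatives, and without both set-apart libraries the log2 fold change was 0.55 (adjusted p = 0.0353).

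**Figure D1:**
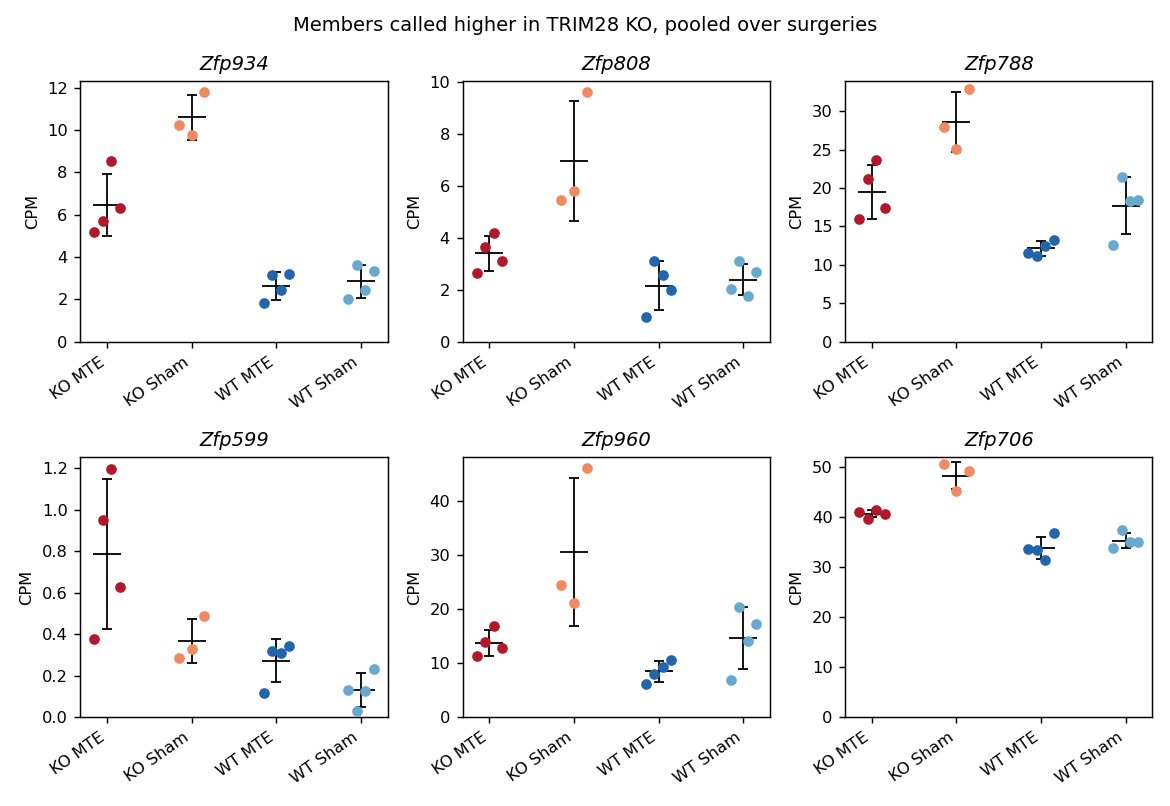
CPM of the 6 members called higher in KO pooled over surgeries, by library (points) in KO MTE, KO Sham, WT MTE and WT Sham, with mean and SD (bars). For Zfp934 the KO libraries lie between 5.20 and 11.8 CPM and the WT libraries between 1.80 and 3.61 CPM.

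Separation of the groups gave a similar list. KO and WT libraries did not overlap in both surgeries, in the same direction, for 7 members that were higher in KO (4%, against 1.55% of all genes) and 0 that were lower (0.627% of all genes). These were Zfp934, Zfp788, Zfp599, Zfp960 and Zfp706, together with Zfp612 and Zfp784, which did not pass the test. Zfp612, a KRAB-pattern gene on chromosome 8, averaged 8.65 ± 1.35 CPM in KO MTE and 5.93 ± 0.5204 in WT MTE (SD, n = 4 each), with a pooled log2 fold change of 0.51 (adjusted p = 0.0701). Zfp784 averaged 3.96 ± 0.5198 CPM in KO MTE and 2.99 ± 0.387 in WT MTE (SD, n = 4 each), with a pooled log2 fold change of 0.38 (adjusted p = 0.111).

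Within one surgery, the calls were 1 higher and 0 lower for KO MTE against WT MTE (1.21% of all genes were called higher and 1.47% in all) and 2 higher and 0 lower for KO Sham against WT Sham (0.511% of all genes were called). Zfp934 was the one after MTE, and Zfp934 and Zfp706 the 2 after Sham. The median log2 fold change of members was 0.05 after MTE, against -0.06 over all genes, and 0.16 after Sham, against -0.01 over all genes. In the sham comparison, KRAB-pattern members had a median of 0.28 and members without the pattern one of 0.04. Every KO Sham library was above every WT Sham library for 19 members (10.9%, against 4.54% of all genes) and below for 2 (1.14%, against 2.93%). The MTE groups were apart with KO higher for 9 members (5.14%, against 5.58% of all genes) and lower for 1 (0.571%, against 6.74%). The sham shift in the medians rested on the set-apart libraries: without them the medians were -0.08 for KRAB-pattern members and 0.06 for those without the pattern, and -0.04 over all members. The call of Zfp934 after Sham was made without them too (log2 fold change 1.66, adjusted p = 0.00813). After MTE, leaving out the same 2 sham libraries gave 6 members called higher, Zfp964, Zfp934, Zfp612, Zfp960, Zfp788 and Zfp617, where 4.84% of all genes were then called.

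The second comparison asked what overload changed. Many members fell in both genotypes, and most of those were KRAB-pattern genes, as were 108 of all 175 members. In KO, 7 members were called higher and 51 lower in MTE against Sham, which is 4% and 29.1% of members, where 13.2% of all genes were called higher and 12.7% lower, 25.9% in all. In WT, 8 were called higher and 30 lower, 4.57% and 17.1% of members, where 14.1% of all genes were called higher and 11.2% lower, 25.3% in all. The median log2 fold change of members was -0.33 in KO and -0.18 in WT, against 0.04 over all genes in each. Groups did not overlap, with every MTE library lower, for 64 members in KO (36.6%, against 16.2% of all genes) and 18 members in WT (10.3%, against 11% of all genes). They did not overlap, with every MTE library higher, for 15 members in KO (8.57%, against 19.9% of all genes) and 8 in WT (4.57%, against 13.7%).

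The set-apart libraries shifted these counts in opposite directions. Without WT Sham library 1, WT calls were 11 higher and 54 lower, where 38.9% of all genes were called. Without KO Sham column 3, KO calls were 3 higher and 11 lower, where 12.9% of all genes were called. These 14 of 175 members were a smaller share than that of all genes. Without both, KO had 6 higher and 36 lower, where 23.7% of all genes were called, and WT had 12 higher and 60 lower, where 44.4% were called. The medians were then -0.22 in KO and -0.32 in WT. More members fell than rose in both genotypes in each of these fits. The shares of all genes given for these fits cover both directions, and shares called lower alone were not worked out.

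The called members in both overload comparisons numbered 29, all in the same direction: 25 lower (14.3%, against 7.69% of all genes) and 4 higher (2.29%, against 9.42%). They made up 50% of the KO list and 76.3% of the WT list. Of the 25, 21 had the KRAB pattern, which 108 of all 175 members have. Without the set-apart libraries 38 were called in both, 33 lower and 5 higher, where 9.13% of all genes were called lower in both and 11.9% higher. Some members called between genotypes also fell. With all libraries used, Zfp788 was among the 25 (log2 fold change -0.55 in KO and -0.54 in WT). Zfp934 (-0.72), Zfp808 (-1.02) and Zfp960 (-1.15) were called lower in KO alone. Without the set-apart libraries Zfp960 was called in both genotypes, and the KO calls of Zfp788, Zfp934 and Zfp808 were lost.

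**Figure D2:**
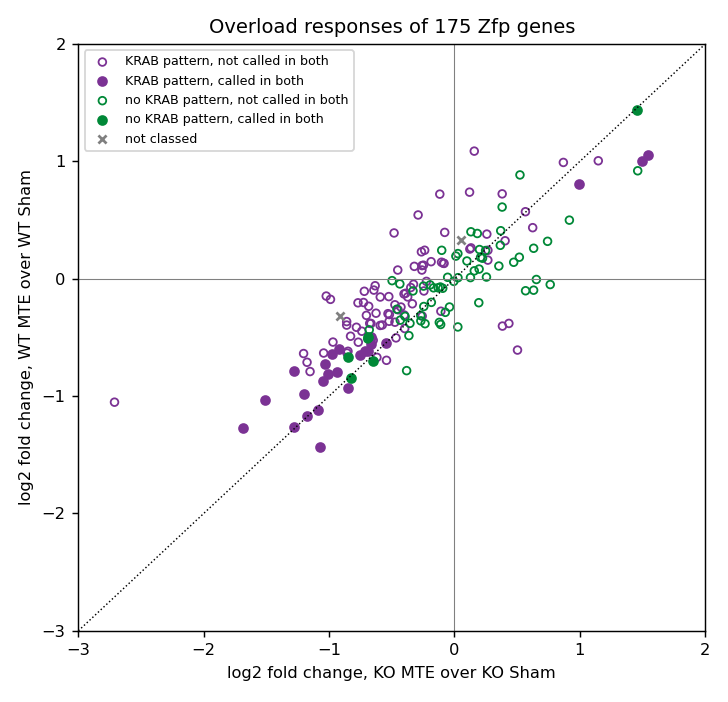
Overload response of each of the 175 members in KO (log2 fold change of MTE over Sham, x axis) and in WT (y axis), coloured by KRAB pattern, filled where called in both genotypes; the dotted line marks equal responses. The 25 members called lower in both lie in the lower left, and the 4 called higher in both in the upper right. Of the 25, 21 have the KRAB pattern, against 108 of all 175 members.

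Among the members that fell, Zfp949, a KRAB-pattern gene of 11 fingers on chromosome 9, had 10.4, 12.4, 12.4 and 9.77 CPM in KO MTE and 22.7, 19.99 and 33.6 CPM in KO Sham. It had 8.12, 10.9, 13.1 and 12.98 CPM in WT MTE and 13.6, 30.1, 26.96 and 30.99 CPM in WT Sham. All MTE libraries were below all Sham libraries, the nearest being WT Sham library 1. The log2 fold change was -1.17 in KO (SE 0.26, adjusted p = 0.00664) and -1.17 in WT (SE 0.25, adjusted p = 0.00359).

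Zfp940, on chromosome 7, had 1.25, 1.26, 1.400 and 1.33 CPM in KO MTE and 2.77, 2.88 and 5.697 CPM in KO Sham. It had 1.28, 1.39, 1.19 and 1.83 CPM in WT MTE and 1.94, 2.74, 3.103 and 3.82 CPM in WT Sham. The groups did not overlap in either genotype. It fell in KO (log2 fold change -1.51, SE 0.28, adjusted p = 0.00258) and in WT (log2 fold change -1.03, SE 0.27, adjusted p = 0.0118), and in KO without the set-apart libraries by 1.12 on the log2 scale.

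Zfp882, on chromosome 8, had 3.01, 3.67, 3.998 and 2.66 CPM in KO MTE and 7.46, 5.79 and 9.86 CPM in KO Sham. It had 3.18, 4.09, 2.96 and 2.09 CPM in WT MTE and 5.45, 6.800, 5.66 and 6.55 CPM in WT Sham. Here too the groups were apart in both genotypes, with changes called in KO (log2 fold change -1.20, SE 0.24, adjusted p = 0.00358) and WT (log2 fold change -0.98, SE 0.23, adjusted p = 0.00577). Its exons overlap those of its neighbour Zfp617 on the same strand.

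Zfp759, one of 7 members in a run at chr13:67038596-67687071, had 7.02, 9.76, 9.01 and 6.605 CPM in KO MTE and 14.8, 13.3 and 23.8 CPM in KO Sham. It had 4.89, 7.49, 5.95 and 7.57 CPM in WT MTE and 8.32, 17.7, 15.2 and 15.1 CPM in WT Sham. It was lower in every MTE library of both genotypes, with changes called in KO (log2 fold change -1.09, SE 0.27, adjusted p = 0.01) and WT (log2 fold change -1.12, SE 0.25, adjusted p = 0.00507). Zfp661, on chromosome 2, behaved alike, with 3.92 ± 0.219 CPM in KO MTE and 8.14 ± 2.496 in KO Sham (log2 fold change -1.05, SE 0.20, adjusted p = 0.00259), and 4.33 ± 0.333 CPM in WT MTE and 7.92 ± 1.22 in WT Sham (log2 fold change -0.87, SE 0.18, adjusted p = 0.0037; SD, n = 4 except 3 for KO Sham).

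Zfp652, without the KRAB pattern, was among the most abundant members that fell. Its human counterpart is a repressor that partners the corepressor CBFA2T3. It had 107, 100.2, 107 and 95.2 CPM in KO MTE and 177, 155 and 213 CPM in KO Sham. It had 84.1, 80.2, 88.03 and 87.3 CPM in WT MTE and 113, 167, 173 and 159.8 CPM in WT Sham. The groups were apart in both genotypes, with changes called in KO (log2 fold change -0.83, SE 0.15, adjusted p = 0.00194) and WT (log2 fold change -0.85, SE 0.14, adjusted p = 0.00066). Its exons overlap Phospho1 on the same strand, and its counts were not whole in any library.

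The steepest fall called in WT was that of Zfp879 (log2 fold change -1.44, SE 0.30, adjusted p = 0.00334), and it fell in KO as well (log2 fold change -1.07, SE 0.31, adjusted p = 0.0224). The steepest called in KO was that of Zfp708 (log2 fold change -1.69, SE 0.47, adjusted p = 0.0192), which in mouse binds the retrotransposon RMER19B. In WT its change was at the threshold (log2 fold change -1.27, SE 0.45, adjusted p = 0.0491) and was kept under 11 of 24 alternatives. Zfp708 counts were not whole in 14 libraries. Zfp866 and Zfp612 also fell in both genotypes: by 0.92 and 0.85 on the log2 scale in KO, and by 0.60 and 0.93 in WT. Calls for Zfp949, Zfp940, Zfp882, Zfp661, Zfp652 and Zfp866 were kept in both genotypes under every alternative run. Without KO Sham column 3 alone, the KO calls of Zfp759, Zfp879, Zfp708 and Zfp612 were lost, with adjusted p of 0.065, 0.0856, 0.135 and 0.0579, whereas all 4 were called without both set-apart libraries.

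Other falls were called in one genotype with all libraries used. Zfp975, on chromosome 7, was called in KO (log2 fold change -1.20, SE 0.27, adjusted p = 0.00694), with -0.64 in WT (adjusted p = 0.081), and the pseudogene Zfp939 was called in KO (log2 fold change -0.91, SE 0.18, adjusted p = 0.00364), with -0.32 in WT (adjusted p = 0.193). Without the set-apart libraries Zfp975 was called in both, at -0.85 in KO (adjusted p = 0.00365) and -0.88 in WT (adjusted p = 0.000507). In WT, Zfp775, without the KRAB pattern, was called lower (log2 fold change -0.78, SE 0.19, adjusted p = 0.00824), with -0.38 in KO (adjusted p = 0.171). The difference between the genotypes' responses was not called for any of them. Zfp980 had the most negative fitted value, -2.71 in KO, and was not called (SE 1.13, adjusted p = 0.0883): KO Sham column 3 had 4.29 CPM, and every other KO library was under 0.43 CPM. It was named after its values were seen.

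**Figure D3:**
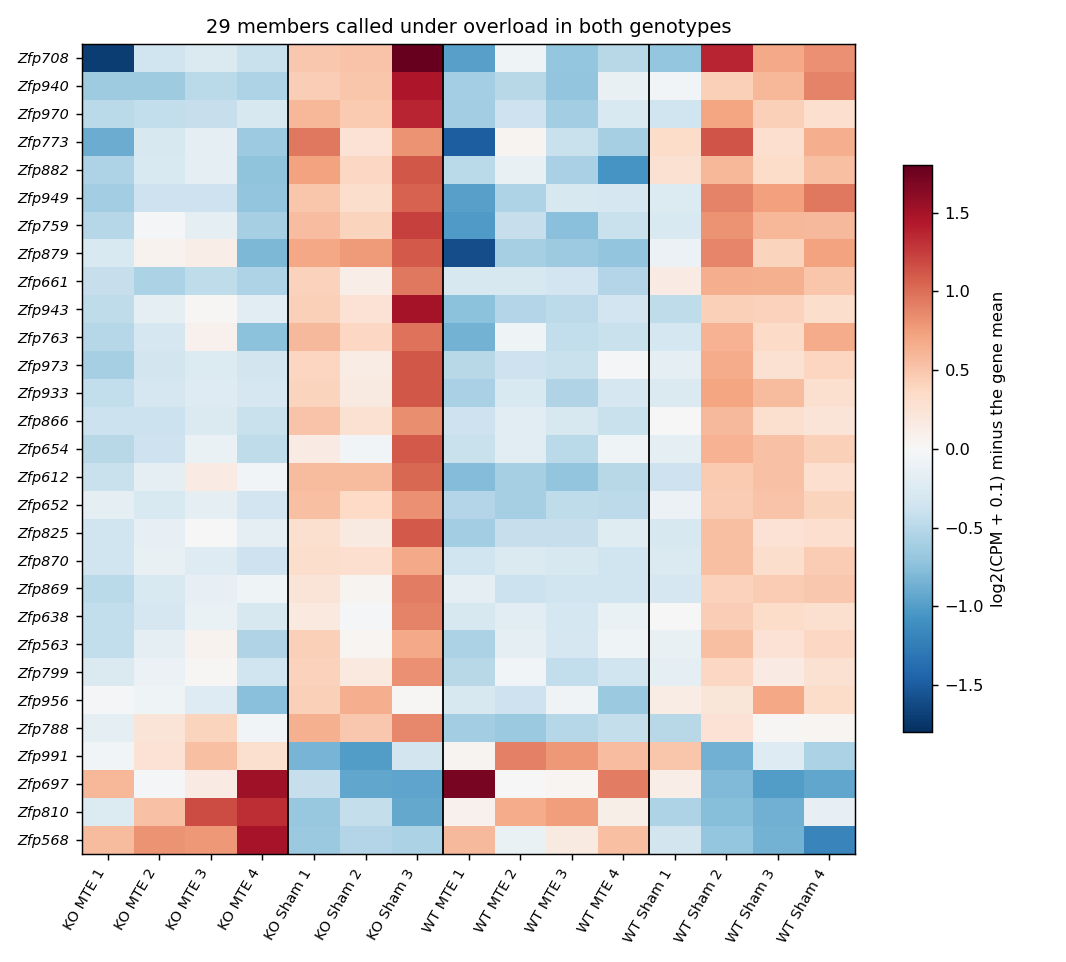
The 29 members called in both overload comparisons (rows, ordered by the KO response) in each library (columns), as log2(CPM + 0.1) minus the gene's mean over the 15 libraries. The 25 upper genes are lower on average in the MTE columns of both genotypes; KO Sham column 3 is the highest library for 23 of them, and WT Sham library 1 lies nearer to the MTE libraries.

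The members that rose under overload were fewer and of mixed kinds. Zfp568, a KRAB-pattern gene whose product in the mouse embryo silences a placental transcript of the growth factor gene Igf2, rose most clearly. It had 80.4, 95.4, 93.7 and 152 CPM in KO MTE and 34.03, 37.5 and 36.6 CPM in KO Sham. It had 81.4, 49.95, 60.6 and 79.2 CPM in WT MTE and 43.3, 33.6, 29.9 and 23.9 CPM in WT Sham. The groups did not overlap in either genotype, and the rise was called in KO (log2 fold change 1.55, SE 0.25, adjusted p = 0.000974) and WT (log2 fold change 1.05, SE 0.22, adjusted p = 0.0034) under every alternative run. The difference between the genotypes' responses, 0.50, was not called (adjusted p = 0.989).

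Zfp810, on chromosome 9, had 5.700, 9.83, 15.5 and 17.2 CPM in KO MTE and 4.18, 5.01 and 3.55 CPM in KO Sham. It had 7.19, 10.8, 11.5 and 7.31 CPM in WT MTE and 4.57, 3.96, 3.69 and 6.13 CPM in WT Sham. Each MTE library was above each Sham library of its genotype, with rises called in KO (log2 fold change 1.50, SE 0.34, adjusted p = 0.00705) and WT (log2 fold change 1.00, SE 0.30, adjusted p = 0.0257). The WT call was lost without WT Sham library 2 or 3 or without WT MTE library 2 or 3.

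Zfp697, which lacks the KRAB pattern and has been described in mouse as a regulator of muscle regeneration, varied widely between MTE libraries. It had 8.58, 5.55, 6.23 and 16.3 CPM in KO MTE and 4.18, 2.88 and 2.88 CPM in KO Sham. It had 18.7, 5.63, 5.78 and 10.7 CPM in WT MTE and 6.14, 3.19, 2.77 and 2.91 CPM in WT Sham. The KO groups did not overlap, while WT Sham library 1, the one rich in macrophage markers, was within the WT MTE range. The rise was called in KO (log2 fold change 1.46, SE 0.48, adjusted p = 0.038) and WT (log2 fold change 1.44, SE 0.43, adjusted p = 0.025). The KO call was kept under 15 of 22 alternatives and the WT call under 19 of 24. Without the set-apart libraries the KO call was lost (adjusted p = 0.0796) and the WT change was 1.74 (adjusted p = 0.00885). Exons of Hsd3b2 and Hsd3b3 overlap Zfp697 on the other strand, and the sources do not state if reads were assigned by strand.

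Zfp991, on chromosome 4, was the fourth member higher in both (log2 fold change 0.99, SE 0.31, adjusted p = 0.0309 in KO and log2 fold change 0.81, SE 0.28, adjusted p = 0.0462 in WT). Zfp992, on the same chromosome, was called in WT (log2 fold change 0.99, SE 0.33, adjusted p = 0.0402) and not in KO (0.87, adjusted p = 0.0909). Without the set-apart libraries both were called in both genotypes, at 1.19 and 1.12 in KO and 1.11 and 1.44 in WT. In WT Sham library 1, Zfp991 and Zfp992 had 13.1 and 8.59 CPM, against at most 7.84 and 3.70 CPM in the other WT Sham libraries. The Zfp991 calls, and that of Zfp992, were lost when any of several single libraries was left out. Both have counts shared with other genes.

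Zfp948, a KRAB-pattern gene of 15 fingers on chromosome 17, had the smallest p among the rises in WT. It had 17.8, 21.4, 20.4 and 24.6 CPM in WT MTE, against 10.2, 9.89, 10.4 and 9.16 CPM in WT Sham, so that the groups were far apart (log2 fold change 1.09, SE 0.16, adjusted p = 0.00035). In KO it had 16.3, 16.5, 19.8 and 19.96 CPM after MTE, against 14.5, 12.8 and 21.6 CPM after Sham, and these overlapped (log2 fold change 0.16, SE 0.17, adjusted p = 0.51). Its difference between the responses had the smallest interaction p of all members, 0.00133 before adjustment, and was not called (-0.93, SE 0.23, adjusted p = 0.989). KO Sham column 3 was the highest KO library, and without the set-apart libraries the KO response was 0.40 (adjusted p = 0.077) and the difference -0.66.

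Among members without the KRAB pattern, some rises were called in one genotype with all libraries used. Zfp521, a nuclear regulator of blood, fat and bone precursors, was called in WT (log2 fold change 0.61, SE 0.17, adjusted p = 0.0175) and had 0.38 in KO (adjusted p = 0.139). Zfp618, which binds the chromatin protein UHRF2, was called in WT (log2 fold change 0.88, SE 0.23, adjusted p = 0.0128) and had 0.52 in KO (adjusted p = 0.138). Zfp516, an activator of the brown fat gene Ucp1, was called in KO (log2 fold change 0.74, SE 0.19, adjusted p = 0.0138) and had 0.32 in WT (adjusted p = 0.207). Zfp593, whose yeast relative acts in ribosome assembly, was called in KO (log2 fold change 1.46, SE 0.41, adjusted p = 0.0201) and had 0.92 in WT (adjusted p = 0.0846). Zfp821 was called in KO too (log2 fold change 0.52, SE 0.15, adjusted p = 0.0225), with 0.18 in WT (adjusted p = 0.359). Without both set-apart libraries Zfp593 was called in both genotypes, at 1.14 in KO (adjusted p = 0.0319) and 1.18 in WT (adjusted p = 0.00827), and the KO call of Zfp821 was lost (adjusted p = 0.0584). The KO calls of Zfp516, Zfp593 and Zfp821 were lost without KO Sham column 3 alone, that of Zfp618 in WT without WT MTE library 3, and that of Zfp521 in WT without WT Sham library 3, WT MTE library 2 or WT MTE library 3.

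Split by the KRAB pattern, the overload response had different centres. In KO, 12.7% of all genes were called lower and 13.2% higher. Of 108 KRAB-pattern members, 44 fell (40.7%) and 3 rose, with a median log2 fold change of -0.53. Of 65 members without the pattern, 6 fell (9.23%) and 4 rose, with a median of -0.01. In WT, 11.2% of all genes were called lower and 14.1% higher. There 22 KRAB-pattern members fell (20.4%) and 5 rose, with a median of -0.30. Of the members without the pattern, 8 fell (12.3%, near the share of all genes) and 3 rose, with a median of -0.05. Without the set-apart libraries the medians were -0.34 with and -0.13 without the pattern in KO, and -0.43 with and -0.07 without the pattern in WT. With the pattern, 28 of 108 then fell and 4 rose in KO, and without it 7 of 65 fell and 2 rose. There 23.7% of all genes were called in either direction. In WT 47 of 108 with the pattern fell and 7 rose, and 13 of 65 without it fell and 5 rose, where 44.4% of all genes were called in either direction. The share of all genes called lower alone was not worked out for this fit, so the falls have no matching background here. The difference between these sets is a description and was not tested. The Zfp genes from Zfp1 to Zfp499, 157 in all, gave similar figures: 45 lower and 6 higher in KO (median -0.33), and 22 lower and 7 higher in WT (median -0.15).

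Summed over the KRAB-pattern members, KO MTE libraries held 921, 1078, 1207 and 1105 CPM, against 1321, 1179 and 1989 CPM in KO Sham. WT MTE libraries held 884, 1042, 998 and 1064 CPM, against 932, 1375, 1233 and 1259 CPM in WT Sham. KO Sham column 3 was the highest and, among the Sham libraries, WT Sham library 1 the lowest. Leaving those aside, KO Sham held 1179 to 1321 CPM and WT Sham 1233 to 1375 CPM, and in KO the ranges of MTE and Sham met, with 1207 CPM in KO MTE library 3 and 1179 CPM in KO Sham column 2. Members without the pattern summed to 1094 to 1186 CPM in KO MTE and 1300 to 1567 CPM in KO Sham, and to 1070 to 1146 CPM in WT MTE and 1183 to 1379 CPM in WT Sham. These groups did not overlap. The sums depend on the TMM scaling. As a share of unscaled counts, all members held 0.223% to 0.260% in KO MTE and 0.252% to 0.276% in KO Sham. In WT they held 0.212% to 0.251% after MTE and 0.203% to 0.235% after Sham, so the ranges overlap in both genotypes. The sums are led by the most abundant genes, whereas the medians weigh each gene alike. Mitochondrial counts moved in the same direction as the summed CPM. They made up 7.09% to 9.01% of counts in KO MTE and 11.3% to 20.5% in KO Sham, and 6.21% to 8.97% in WT MTE and 6.95% to 14.4% in WT Sham. Their part in the result, and that of the muscle, macrophage and fibroblast markers above, was not tested.

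**Figure D4:**
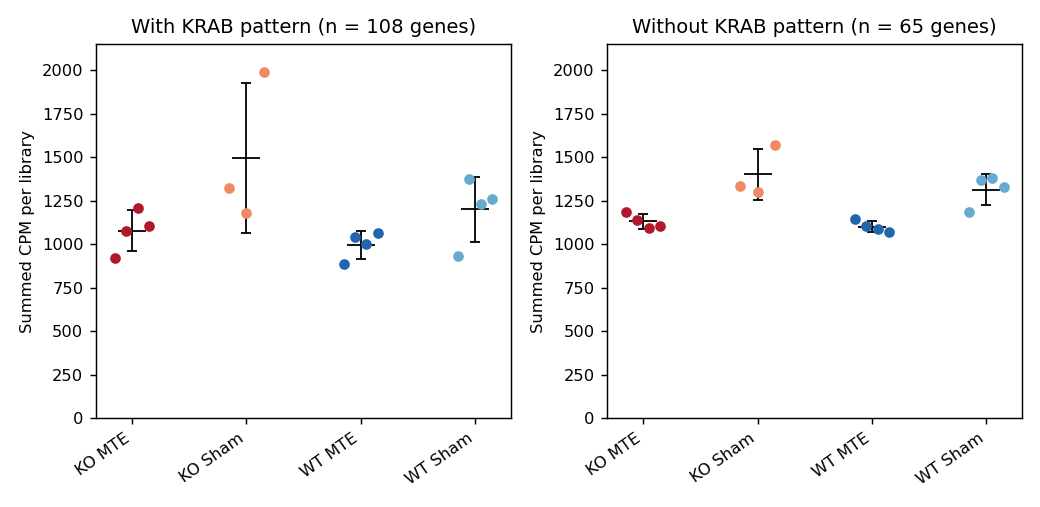
Summed CPM of the 108 members with the KRAB pattern (left) and the 65 without it (right) in each library (points), with mean and SD (bars). KO Sham column 3 stands at 1989 CPM on the left, and WT Sham library 1 at 932 CPM is the lowest Sham library.

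The members were also split by finger number, of which the highest and lowest classes are given, and by naming order. These splits were not crossed with the KRAB pattern. Members with 11 or more fingers had medians of -0.47 in KO and -0.20 in WT, and those with 0 to 5 fingers -0.07 and -0.05. Members from Zfp750 to Zfp999 had medians of -0.51 in KO and -0.31 in WT, and those from Zfp500 to Zfp749 had -0.12 and -0.06. Counts that were whole in every library marked 135 members, of which 33 fell in KO and 23 in WT, with medians of -0.24 and -0.10. In the 40 with shared reads, 18 fell in KO and 7 in WT, with medians of -0.69 and -0.34. Of all genes, 12.7% were called lower in KO and 11.2% in WT. The share that fell was larger with shared reads in KO and similar in both sets in WT. Without the set-apart libraries the medians of members with 11 or more fingers were -0.27 in KO and -0.35 in WT, and those of members with 0 to 5 fingers -0.09 and -0.10. They were then -0.33 in KO and -0.44 in WT for Zfp750 to Zfp999, and -0.15 and -0.08 for Zfp500 to Zfp749. Whole counts went with medians of -0.18 in KO and -0.20 in WT, and shared reads with -0.43 and -0.54.

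Neighbours tended to be alike in some runs and not in others. In the run at chr13:67038596-67687071, 6 of 7 members fell in KO (median -0.68) and 2 in WT (median -0.39). In the run at chr17:32765496-33110705, which holds Zfp871, Zfp811, Zfp799, Zfp870, Zfp952, Zfp763 and Zfp563, 5 of 7 fell in KO (median -0.67) and 4 in WT (median -0.50). A run of 6 at chr8:69209038-69791178, which holds Zfp866 and Zfp869, had 4 that fell in KO and 2 in WT. For comparison, 12.7% of all genes and 40.7% of KRAB-pattern members fell in KO. In WT 11.2% of all genes and 20.4% of KRAB-pattern members did. Whether neighbours were more alike than other members was not tested. The KO counts of these runs rested on KO Sham column 3: without it, no member of the first pair of runs was called in KO and Zfp866 alone in the run on chromosome 8. Without both set-apart libraries, 5 of 7, 4 of 7 and 2 of 6 fell in KO, and 5 of 7, 5 of 7 and 4 of 6 in WT. Of all KRAB-pattern members, 28 of 108 then fell in KO and 47 of 108 in WT. By contrast, none of the 10 members at chr7:127233061-127885996 was called in either genotype, and their medians were 0.08 in KO and -0.01 in WT. Another run on chromosome 7, of 4 genes from Zfp790 to Zfp566, held both Zfp940, which fell, and Zfp568, which rose. Neighbours that share sequence also share reads, so they are not independent.

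**Figure D5:**
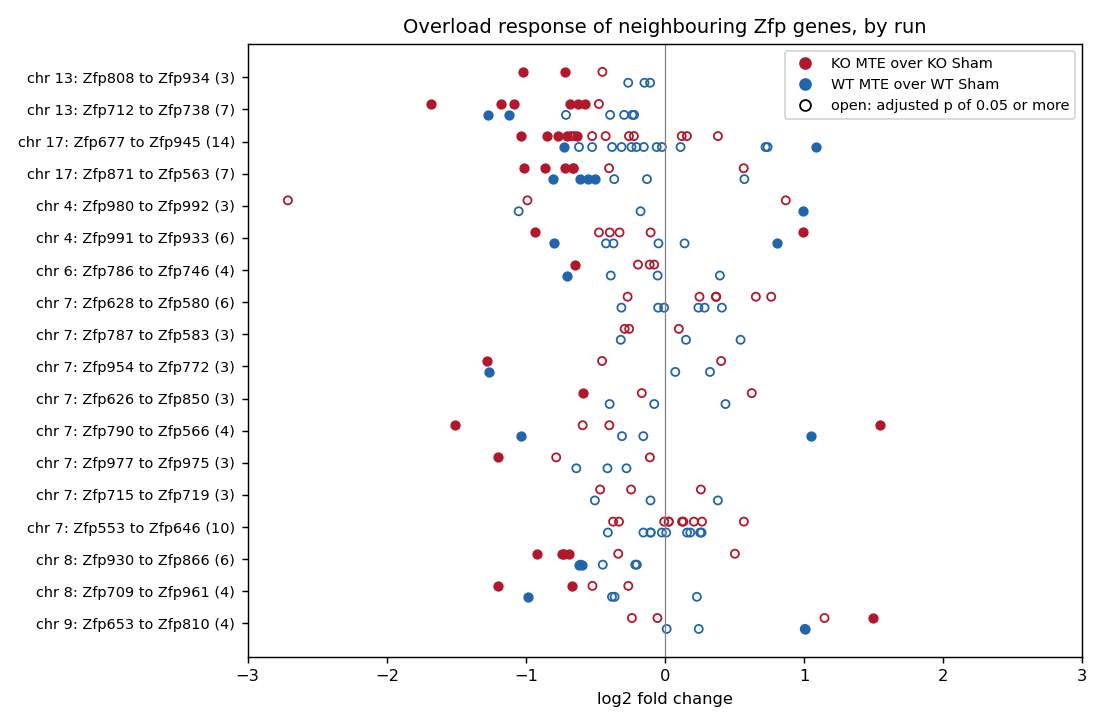
Overload response (log2 fold change of MTE over Sham) of the 93 members in 18 runs of neighbouring genes, in KO (red, upper) and WT (blue, lower), filled where the adjusted p was under 0.05. Rows are labelled with the chromosome, the first and last gene and the number of members; the run of 10 from Zfp553 to Zfp646 on chromosome 7 has no filled point.

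Whether the overload response differed between genotypes was tested with the interaction, the response in KO minus that in WT. No member was called by edgeR, where 0 of 17212 genes were (0%), nor by DESeq2. At an unadjusted p under 0.05 there were 7 members (4%), where 605 of all genes had such a p. The median interaction of members was -0.16, against -0.01 over all genes, and it was 0.08 without the set-apart libraries. The longer list of calls in KO is therefore no test of a stronger response, and it was the shorter list, 42 against 72, without those libraries.

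Of 24 symbols listed for a known role whatever their values, 22 were in the table. Those known as retroviral silencers were not called between genotypes by edgeR. Zfp809, which in mouse silences retroviruses through their tRNA primer site, had 9.27, 9.21, 10.1 and 9.605 CPM in KO MTE and 8.71, 10.6, 9.08 and 8.41 CPM in WT MTE. It had 10.2, 10.7 and 12.9 CPM in KO Sham and 8.35, 8.03, 7.25 and 7.45 CPM in WT Sham, groups that did not overlap. The sham difference missed the threshold (log2 fold change 0.53, SE 0.13, adjusted p = 0.109) and that after MTE was 0.05. DESeq2 called Zfp809 higher in KO after Sham and pooled. Zfp932, another repressor of endogenous retroviruses in mouse, had pooled 0.38 (adjusted p = 0.177), and was not called under overload. Zfp961, another KRAB-pattern member, had pooled 0.01 (adjusted p = 0.987). It fell under overload in KO (log2 fold change -0.67, SE 0.22, adjusted p = 0.0421), a call kept under 10 of 22 alternatives.

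Among members that act in translation, Zfp598, the ubiquitin ligase that senses collided ribosomes, averaged 10.6 ± 2.88 CPM in KO MTE and 6.75 ± 3.63 in KO Sham (SD, n = 4 and 3), and 9.68 ± 3.401 in WT MTE and 8.09 ± 2.73 in WT Sham (n = 4 each). Neither overload change was called (adjusted p = 0.23 in KO and 0.638 in WT). Zfp622, a ribosome maturation factor, averaged 16.96 ± 2.92 CPM in KO MTE and 18.6 ± 1.499 in KO Sham, and 14.9 ± 0.619 in WT MTE and 15.8 ± 2.38 in WT Sham. Its changes were not called (adjusted p = 0.541 in KO and 0.734 in WT). Zfp746, known as PARIS and a repressor of the mitochondrial coactivator gene Ppargc1a, was also not called (-0.19 in KO, adjusted p = 0.264, and -0.05 in WT, adjusted p = 0.783).

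Zfp638, an RNA-binding cofactor of fat cell differentiation, fell in KO (log2 fold change -0.69, SE 0.18, adjusted p = 0.015) and, at the threshold, in WT (log2 fold change -0.50, SE 0.17, adjusted p = 0.0435). Without KO Sham column 3 the KO change was -0.37 and its call was lost (adjusted p = 0.0944), and the WT call was kept under 13 of 24 alternatives. It averaged 112 ± 10.3 CPM in KO MTE and 180.0 ± 63.1 in KO Sham, and 116 ± 7.07 CPM in WT MTE and 164 ± 20.3 in WT Sham (SD, n = 4 except 3 for KO Sham). Zfp687, Zfp592 and Zfp532, which form a chromatin complex together, had no call by edgeR in any comparison with all libraries used, with pooled log2 fold changes of 0.12 for Zfp687, -0.19 for Zfp592 and 0.16 for Zfp532. The remaining ones, Zfp608, Zfp609, Zfp703, Zfp711, Zfp827 and Zfp830, were not called by edgeR either, with adjusted p between 0.08 and 0.973 over the pooled and overload comparisons. DESeq2 called Zfp827 higher in KO pooled. Zfp830 was called lower after WT overload without the set-apart libraries (-0.51, adjusted p = 0.011).

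The silencing machinery that KRAB proteins work through was described by a list of 30 genes, 29 of which were tested. Trim28 alone was called between genotypes. Under overload, 5 rose and 4 fell in KO, where 25.9% of all genes were called, and 5 rose and 1 fell in WT, where 25.3% were. Chd3, a NuRD remodeller, rose in KO (log2 fold change 1.30, SE 0.22, adjusted p = 0.0014) and WT (log2 fold change 1.38, SE 0.20, adjusted p = 0.00029). Hdac1, a histone deacetylase, rose in KO (log2 fold change 0.82, SE 0.19, adjusted p = 0.00801) and WT (log2 fold change 0.72, SE 0.17, adjusted p = 0.0076). Dnmt1, the maintenance DNA methyltransferase, rose in KO (log2 fold change 1.02, SE 0.28, adjusted p = 0.017) and WT (log2 fold change 0.94, SE 0.25, adjusted p = 0.0145). Zfp57, a KRAB protein that guards imprints, rose in KO (log2 fold change 0.90, SE 0.27, adjusted p = 0.0249) and WT (log2 fold change 1.62, SE 0.25, adjusted p = 0.000426). Trim24, a relative of Trim28, fell in KO (log2 fold change -0.64, SE 0.16, adjusted p = 0.0101) and WT (log2 fold change -0.48, SE 0.15, adjusted p = 0.0269). Called lower in KO alone were Hdac2 (-0.76, adjusted p = 0.0162), Atf7ip (-0.56, adjusted p = 0.0109) and Lsm14a (-0.40, adjusted p = 0.0331). In WT these had -0.39, -0.31 and -0.32 (adjusted p = 0.153, 0.0981 and 0.0629). Uhrf1 was called higher in WT (1.66, adjusted p = 0.0422) and not in KO (1.78, adjusted p = 0.0506). Trim28 itself was called higher after MTE in KO (log2 fold change 1.30, SE 0.29, adjusted p = 0.00684) and not in WT (0.45, adjusted p = 0.224). The difference between these responses, 0.85 (SE 0.38), was not called (adjusted p = 0.989). KO Sham column 3 was the lowest library for Trim28, at 5.39 CPM. Values for this list are with all libraries used.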

How the data were processed

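Total RNA was depleted of ribosomal RNA and made into stranded libraries, per the labels' protocols. The authors deposited expected counts per gene, 90.9% of them whole to 0.01. STAR, RSEM, edgeR and GRCm38 are named in the submitters' processing notes. Neither the use of strand nor any filter on the table is stated there. Of 16 labelled samples, 15 libraries were analysed. KO Sham has 3 columns for 4 samples, so its columns carry no sample name. Within groups, no pair of libraries agreed within sampling noise (chi-square per gene of at least 38.3). Replicate numbers were not used to pair the samples in the main fit.

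Expected counts were rounded, filtered with filterByExpr and scaled by TMM. A model with a mean for each of the 4 groups was fitted in edgeR 4.0.16 (robust quasi-likelihood, R 4.3.3), using the 15 libraries together. Benjamini-Hochberg adjustment covered 17212 genes, and calls are adjusted p under 0.05. Pooled is the mean of both genotype differences. The SE is the size of the log2 fold change over the square root of F. Levels are TMM-scaled CPM. Alternatives were DESeq2 1.42.0, limma 3.58.1 (voom), other scalings and filters, fits to fewer groups, and libraries left out. Exact permutation used log2(CPM + 0.1).

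Positions and exon overlaps are from GENCODE M21. The KRAB pattern and fingers were read from its translated transcripts by letter patterns, where RefSeq proteins had been planned. Promoters of members have the RefSeq start nearest the GENCODE start, and those of all genes the first one listed.

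Members, lists and alternatives were chosen with earlier results of these data known. Named members were those called between genotypes or in the interaction, up to 10 of smallest adjusted p per direction in each overload comparison, the 5 highest and 3 lowest per kb, those apart in both surgeries, and the list of known roles. Others are named where a count is small. The authors' own comparison table was not used.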

Additional observations from a re-analysis of the deposited data

Results flagged for a closer look

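Among 177 sets of 4 libraries of one group, for a named member or for the summed level of members with the KRAB pattern, without it or in all, 15 had a library whose gap to the nearest other exceeded Dixon's 95% critical share of the range. Chance gives about 1 in 20. Library 1 of WT Sham, the one with high macrophage markers, held 6 of the 15. In that library Zfp516 stood at 23.7 CPM (17.3 to 18.3 CPM in the others), Zfp697 at 6.143 CPM (2.77 to 3.19 CPM) and Zfp992 at 8.59 CPM (3.03 to 3.698 CPM). Below the others there were Zfp617 at 26.06 CPM (41.1 to 43.4 CPM), Zfp644 at 106.6 CPM (178 to 189 CPM) and Zfp869 at 30.05 CPM (49.4 to 52.0 CPM).

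In KO MTE, library 1 was low for Zfp617 at 32.09 CPM (39.5 to 40.96 CPM in the others) and for Zfp708 at 0.9813 CPM (2.57 to 2.86 CPM), and library 3 was high for Zfp866 at 24.33 CPM (22.1 to 22.2 CPM). In WT MTE, library 1 was low for Zfp599 at 0.1187 CPM (0.308 to 0.343 CPM) and Zfp879 at 0.6172 CPM (1.22 to 1.33 CPM), and high for Zfp869 at 32.76 CPM (28.5 CPM at the lowest in the others). Library 3 was high for Zfp622 at 15.86 CPM (14.6 to 14.7 CPM). Library 4 was low for Zfp516 at 18.95 CPM (24.9 to 25.96 CPM) and high for Zfp600 at 1.294 CPM (0.214 to 0.2995 CPM).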

How the results depend on the processing

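Of the 63 calls of named members none changed direction under any alternative run, and 28 were kept under every one. Medians did change sign without the set-apart libraries: KO Sham against WT Sham gave -0.04 in place of 0.16, and the interaction 0.08 in place of -0.16. For KO Sham against WT Sham, 2 members called became 1 with RLE size factors, with at least 1 CPM required in 8 libraries, with limma voom and without both set-apart libraries, 6 with DESeq2 (1.62% of all genes), and 0 with the 2 groups alone. Leaving out single libraries gave 1 to 2. For KO MTE against WT MTE, 1 became 4 with DESeq2 (3.8% of all genes), 6 without the set-apart libraries, and 3 with the 2 groups alone. Leaving out single libraries gave 0 to 3, with 0 without WT MTE library 3. Pooled, 6 became 11 with DESeq2 (6.98% of all genes) and 4 to 6 with single libraries left out. For WT overload, 38 became 72 without the set-apart libraries and 18 (without WT Sham library 3) to 65 (without WT Sham library 1) with single libraries left out. For KO overload, 58 became 14 (without KO Sham column 3) to 73 (without KO Sham column 2). The interaction gave 0 members throughout. The cause of these moves was not tested.

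Numbers shared between groups gave correlations of deviations from -0.19 to 0.59, and different numbers gave -0.61 to 0.45. The highest for a shared number were those of number 1, at 0.35, 0.34 and 0.59. These ranges overlap and do not settle whether the numbers pair the samples, and the main fit has no block. A replicate block on the numbered libraries gave 3 members for KO MTE against WT MTE, against 1 for the same libraries without it, and 51 for WT overload, against 46. KO Sham columns carry no numbers tied to samples, so no block was possible there. Depth limits the members under 1 CPM, such as Zfp599.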
